A study of Rattus norvegicus with 6 samples.

Results

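Fibrillar collagen is made by fibroblasts through a series of processing steps, and the results below concern 10 genes of these steps. They are the lysyl oxidase genes Lox, Loxl1 and Loxl2, the prolyl 4-hydroxylase alpha subunits P4ha1 and P4ha2, the lysyl hydroxylases Plod1 and Plod2, the collagen chaperone Serpinh1 (HSP47), the procollagen C-proteinase Bmp1 and its enhancer Pcolce. The 10 genes were chosen by name for their role in the pathway, with earlier results of these data known. They leave out other genes of the same families, such as Loxl3, Loxl4 and Plod3, which are described further below. Each of the 10 was found by symbol among the 40154 genes of the count table. All 10 passed the filter on low counts, which left 14852 genes to be tested.

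In the endoplasmic reticulum collagen chains are hydroxylated on prolines, which stabilizes the triple helix, and on lysines, which are later glycosylated or crosslinked. The chaperone HSP47 binds the folded helix and escorts it out of the endoplasmic reticulum. Outside the cell the C-propeptides are removed, the molecules assemble into fibrils, and lysyl oxidases crosslink them, which makes the scar tissue of a fibrotic heart stiff and resistant to breakdown.

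Atrial fibroblasts came from the hearts of Sprague-Dawley rats 1 to 3 days old, which were minced and treated with trypsin, and the fibroblasts were enriched by letting the non-myocytes attach before the atrial myocytes. They were transfected with a control siRNA (si-NC) or an siRNA against GPD1L (si-GPD1L), a glycerol-3-phosphate dehydrogenase-like protein, and polyadenylated RNA was sequenced 24 h later in 3 libraries per group. The labels give both groups the treatment "Atrial differentiation", which they do not explain, and call the siRNA condition a genotype. The sources do not say whether the digit in each library name numbers replicates or different siRNAs, or whether the libraries came from separate cultures, so p-values measure only the spread between these libraries. The comparison asks what the si-GPD1L transfection did to the genes that process collagen.

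The libraries held from 16892255 to 20149732 counts. Targeted Gpd1l was at 262, 332 and 313 normalized counts (counts scaled to the mean library size) in si-NC and at 220, 208 and 302 in si-GPD1L, so the groups overlapped. Its log2 fold change was -0.31 ± 0.15 (SE, n = 3 per group) with an adjusted p of 0.234, and an exact permutation test (two-sided) gave p = 0.20, where 0.10 is the smallest p that 3 against 3 libraries allow. The target's difference did not pass the test, and the groups are named by their labels. All 9 fibroblast markers tested had counts, 2 of them (S100a4 and Dcn) called lower. Their sum, mostly Col1a1, spanned 724498 to 938657 normalized counts across the si-NC libraries, against 999272 to 1015290 with si-GPD1L. Of the 9 markers only 2, Col1a1 and Col1a2, had a log2 fold change above 0, neither of them called, and the median was -0.06. Other cell types were not at 0: the 12 cardiomyocyte markers, 1 of them (Pln) called lower, summed to 35797 to 37762 in si-NC against 32378 to 35631 with si-GPD1L. Tnnt2 (cardiac troponin T) was at 10909 ± 1044 in si-NC and 9196 ± 363 in si-GPD1L (SD, n = 3 each) and was not called (adjusted p = 0.103). Of the 12 markers, 4 went the other way (Ttn, Ryr2, Actn2 and Myh7), and none of these was called. The endothelial markers, 4 of 11 called higher, summed to 1978 to 2446 in si-NC against 2681 to 2823 with si-GPD1L. The 16 macrophage markers (0 called, 1 with an unadjusted p under 0.05) summed to 3381 to 3693 and 2904 to 4146, and the 10 smooth muscle and pericyte markers (1 called higher, 1 lower) to 40892 to 52387 and 43752 to 47884. The 20 interferon-stimulated genes were all called higher in si-GPD1L, and their sum spanned 4428 to 4827 in si-NC against 35573 to 43179 with si-GPD1L. Whether these cell-type and interferon differences play a part in the values below was not tested, and in bulk RNA fewer cells of a type and less RNA per cell cannot be told apart. The first si-NC library stood apart from the other si-NC libraries: the chi-square of the counts divided by its degrees of freedom was 19.7 and 27.4 against each of them, 8.35 between the other two and 3.89 to 5.81 among the si-GPD1L libraries. The fold change of each of the 10 genes is given with and without it.

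None of the 10 genes was called at an adjusted p under 0.05 (edgeR quasi-likelihood F test, Benjamini-Hochberg over 14852 genes), against 6.36% of all genes tested, 4.03% higher and 2.33% lower in si-GPD1L. DESeq2 and the edgeR exact test also called 0. An unadjusted p under 0.05 was reached by 4 genes, Loxl2, P4ha1, Plod1 and Pcolce, against 22.4% of all genes tested, and by 4 with DESeq2 and 3 with the exact test. The median log2 fold change of the 10 genes was 0.0035, against -0.0049 over all genes tested. None of the 10 passed the further threshold of an absolute log2 fold change over 1, and 1.62% of all genes passed both. The 95% confidence intervals of the fold changes ran from 0.799 at the lowest to 1.35 at the highest over the 10 genes. Among genes at least as abundant as the least abundant of the 10, 10.6% of 1350 were called.

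In normalized counts the groups did not overlap for 7 of the 10 genes, against 29.0% of all genes tested. For genes as abundant as the 10 this share was not computed, with or without the first si-NC library. In lists described below, the groups did not overlap for 14 of 24 elastic fiber and assembly genes, 13 of 27 other collagen processing genes and 5 of 17 collagens. In every si-GPD1L library 5 genes were above their si-NC mean and 4 below it. The si-NC libraries varied more than the si-GPD1L libraries for 8 of the 10, against 66.0% of all genes tested, and the first si-NC library was the one farthest from the other two for 7 of the 10.

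**Figure D1:**
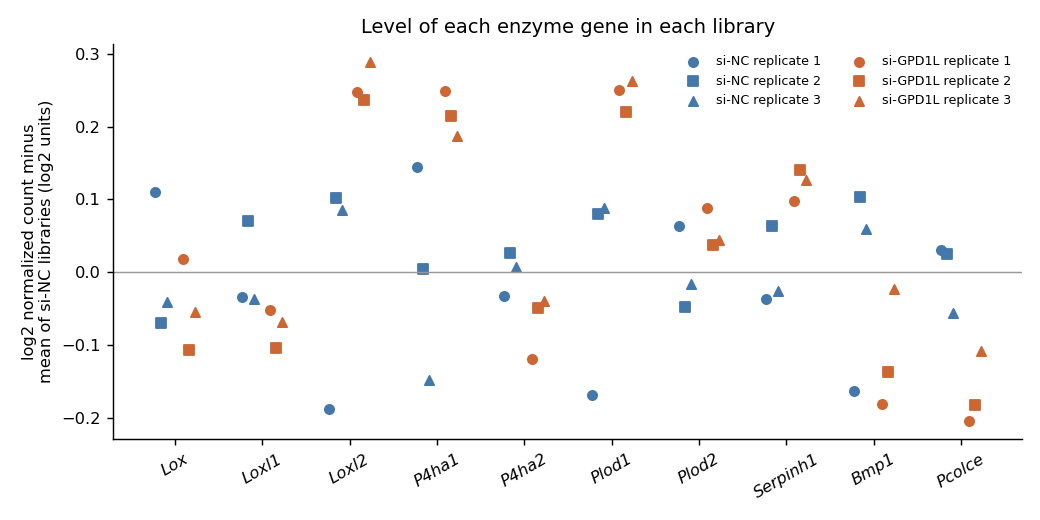
Log2 normalized count of each of the 10 genes in each library minus the mean of the si-NC libraries (vertical axis, log2 units), with si-NC and si-GPD1L in separate colors and a marker shape per replicate. The si-GPD1L libraries of Loxl2, P4ha1, Plod1 and Serpinh1 lie above all 3 si-NC libraries and those of Loxl1, P4ha2 and Pcolce below, while the first si-NC library is often the point farthest from its group.

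The lysyl oxidases are copper enzymes that oxidize lysines of collagen and elastin so that crosslinks can form. Lox (chromosome 18, 47500320 to 47577819, minus strand, build rn6) was at 11631, 10264 and 10468 normalized counts in si-NC and 10910, 10004 and 10372 in si-GPD1L. The groups overlapped, with the first library of each group its highest. Its log2 fold change was -0.05 ± 0.08 (SE) with an adjusted p of 0.763, and without the first si-NC library it was 0.0077, of the opposite sign (adjusted p = 0.956, range 0.630 to 0.956 over 14 alternatives). Loxl1 (chromosome 8, 63067757 to 63092124, minus strand), which is needed for elastic fibers, was at 11928, 12826 and 11908 in si-NC and 11779, 11365 and 11642 in si-GPD1L. All 3 si-GPD1L values lay below the lowest si-NC value by a small margin, and the log2 fold change of -0.08 ± 0.07 did not pass the test (adjusted p = 0.581). It was -0.09 without the first si-NC library (adjusted p = 0.311, up to 0.835 in the other alternatives).

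Loxl2 (chromosome 15, 51276022 to 51365238, plus strand), a family member that crosslinks collagen IV and fibrillar collagens and has been linked to cardiac fibrosis, had the highest fold change of the 10 genes. It was at 4280, 5233 and 5173 normalized counts in si-NC and 5789, 5747 and 5958 in si-GPD1L. The si-GPD1L libraries were all higher and close together, and the lowest value was the first si-NC library. The fold was 1.19 (95% interval 1.05 to 1.35), a log2 fold change of 0.25 ± 0.08 with an adjusted p of 0.101. Without the first si-NC library the log2 fold change was 0.16, with an adjusted p of 0.0565, and with no filter on low counts Loxl2 was called at an adjusted p of 0.0364, the lowest of 14 alternatives that reached up to 0.279.

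The alpha subunits of prolyl 4-hydroxylase carry the catalytic site, and the enzyme works as a tetramer with P4hb, the protein disulfide isomerase. P4ha1 (chromosome 20, 28920616 to 28972576, plus strand) was at 11564, 10490 and 9443 normalized counts in si-NC and 12438, 12146 and 11911 in si-GPD1L. The groups did not overlap, and here the first si-NC library was the si-NC library nearest to si-GPD1L. The fold was 1.16 (95% interval 1.02 to 1.32), with a log2 fold change of 0.21 ± 0.08 and an adjusted p of 0.158. Without the first si-NC library P4ha1 was called, with a log2 fold change of 0.29 and an adjusted p of 0.00208 (up to 0.388 in the other alternatives), in a fit that called 10.1% of all genes tested. P4ha2 (chromosome 10, 39435227 to 39464134, plus strand), at 2408, 2510 and 2475 in si-NC and 2268, 2382 and 2396 in si-GPD1L, is the isoenzyme subunit of P4ha1. Its groups did not overlap, but the log2 fold change was only -0.07 ± 0.07 (adjusted p = 0.578), and it was -0.09 without the first si-NC library (adjusted p = 0.354, up to 0.822 in the other alternatives).

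Lysyl hydroxylases prepare the lysines that are later glycosylated or crosslinked: Plod1 acts mainly on the helix, and Plod2 on the telopeptides, whose hydroxylation favors the stable crosslinks of fibrotic tissue. Plod1 (chromosome 5, 164720629 to 164747071, minus strand) was at 3978, 4730 and 4757 normalized counts in si-NC and 5322, 5212 and 5366 in si-GPD1L. As for Loxl2, the si-GPD1L libraries were all higher and the first si-NC library was the lowest. The fold was 1.18 (95% interval 1.05 to 1.33), with a log2 fold change of 0.24 ± 0.08 and an adjusted p of 0.103, and without that library the log2 fold change was 0.16 (adjusted p = 0.0622, range 0.0524 to 0.280 over the alternatives). Plod2 (chromosome 8, 99977334 to 100059736, plus strand) was at 13010, 12043 and 12309 in si-NC and 13231, 12770 and 12836 in si-GPD1L. These groups overlapped through the first si-NC library, and the log2 fold change was 0.06 ± 0.07 with an adjusted p of 0.699. Without that library the groups did not overlap and the log2 fold change was 0.09 (adjusted p = 0.325, up to 0.882 in the other alternatives).

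Serpinh1 (chromosome 1, 164301010 to 164308306, minus strand) encodes HSP47, a chaperone specific to collagen. It was at 45324, 48603 and 45658 normalized counts in si-NC and 49787, 51275 and 50795 in si-GPD1L. The groups did not overlap, and the fold of 1.09 had a 95% interval of 0.972 to 1.22 (log2 fold change 0.12 ± 0.07, adjusted p = 0.367). Without the first si-NC library the log2 fold change was 0.10, with an adjusted p of 0.178 (up to 0.653 in the other alternatives).

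Bmp1 removes the C-propeptide of procollagen and also activates prolysyl oxidase, and Pcolce binds procollagen and speeds that cleavage. Pcolce (chromosome 12, 22153995 to 22160311, plus strand) was at 18649, 18578 and 17566 normalized counts in si-NC and 15842, 16088 and 16927 in si-GPD1L. Every si-GPD1L library was below every si-NC library, and the fold of 0.892 (95% interval 0.799 to 0.995) was the lowest of the 10 genes (log2 fold change -0.17 ± 0.07, adjusted p = 0.205). Without the first si-NC library the log2 fold change was -0.15, with an adjusted p of 0.0735 (up to 0.486 in the other alternatives). Bmp1 (chromosome 15, 52166401 to 52210786, minus strand) was at 3646, 4387 and 4252 in si-NC and 3598, 3712 and 4016 in si-GPD1L. The first si-NC library lay among the si-GPD1L libraries, and the log2 fold change was -0.12 ± 0.08 (adjusted p = 0.441). Bmp1 was the other gene called without that library, with a log2 fold change of -0.19 and an adjusted p of 0.0355 (up to 0.746 in the other alternatives), and then 9 of the 10 genes did not overlap between groups, against 39.8% of all genes tested.

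**Figure D2:**
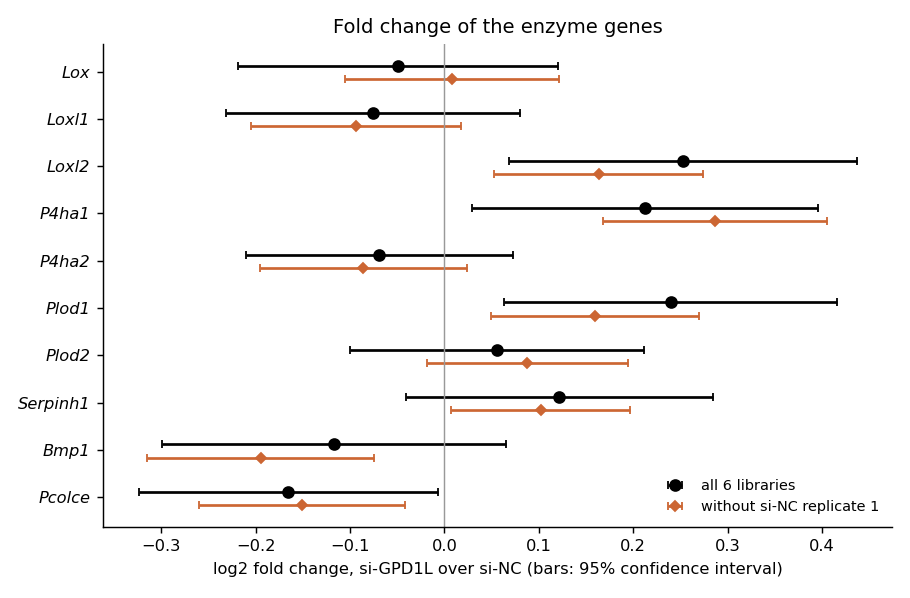
Log2 fold change of si-GPD1L over si-NC for each of the 10 genes (horizontal axis, log2 units), with 95% confidence intervals, from all 6 libraries and without the first si-NC library. With all 6 libraries the intervals of Loxl2, P4ha1, Plod1 and Pcolce leave out 0 but no gene passes the adjusted threshold, and without the first si-NC library P4ha1 and Bmp1 pass it.

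Levels were compared between genes as TPM, the authors' counts per length scaled to a common sum. Serpinh1 was the highest in every library, with a mean of 2920 TPM in si-NC and 3363 TPM in si-GPD1L, followed in every library by Pcolce at 1527 and 1443 TPM and Loxl1 at 639 and 641 TPM. P4ha1 (461 and 568 TPM) and Plod2 (434 and 478 TPM) changed places between libraries, as did Loxl2 (287 and 361 TPM) and Lox (263 and 269 TPM), so neither pair had a fixed order. Plod1 was eighth in every library (199 and 248 TPM), and Bmp1 (130 and 126 TPM) and P4ha2 (124 and 125 TPM) shared the last places in varying order. Enzyme genes of the same families outside the 10 ran from P4hb at 961 and 1163 TPM in si-NC and si-GPD1L, among those that passed the filter on low counts, down to Loxl4 at 6.04 and 6.74 TPM and Tll1 at 6.58 and 5.88 TPM. On the TPM scale the mean of Lox, Loxl1 and P4ha2 was higher in si-GPD1L, whereas their normalized counts were lower. The lack of overlap also depended on the scale. Loxl1, P4ha2 and Pcolce did not overlap in normalized counts but did in TPM (Pcolce at 1475 to 1584 in si-NC against 1395 to 1503 with si-GPD1L). Plod2 overlapped in normalized counts but not in TPM. Together the 10 genes made up 0.672% to 0.702% of all counts in si-NC against 0.711% to 0.714% with si-GPD1L.

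**Figure D3:**
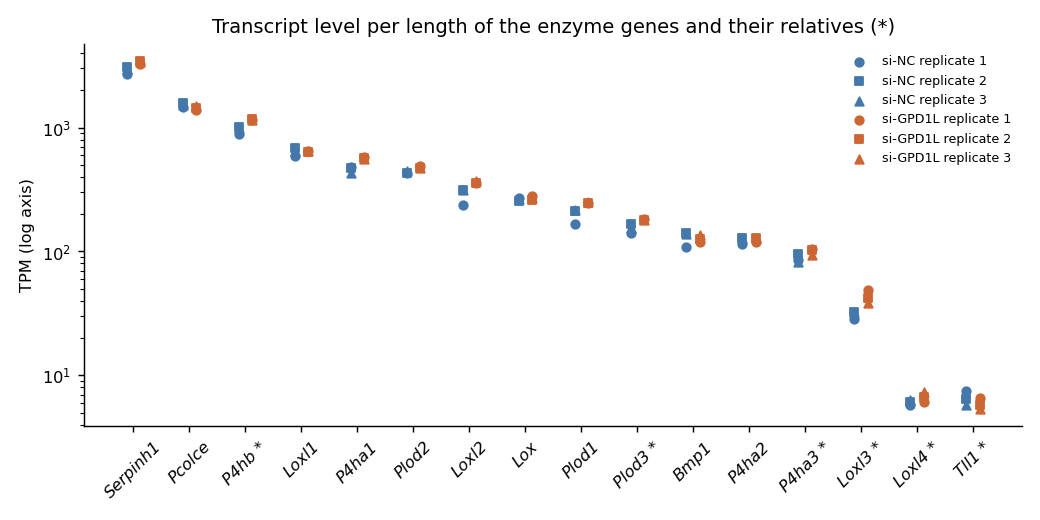
TPM of the 10 genes and of 6 relatives marked with an asterisk (P4hb, Plod3, P4ha3, Loxl3, Loxl4 and Tll1) in each library, on a log axis, with si-NC and si-GPD1L in separate colors. Serpinh1 lies at the top in every library, with P4hb between Pcolce and Loxl1 and the other relatives below Plod1.

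Pairs of enzymes that share a reaction were also compared within each library as a ratio of their TPM, in which any scaling of a library cancels; these pairs were chosen after their values were seen and were not tested. P4ha1 over P4ha2 was 4.20, 3.66 and 3.34 in si-NC and 4.80, 4.46 and 4.35 in si-GPD1L, with every si-GPD1L ratio higher. Plod2 over Plod1 was 2.58, 2.01 and 2.04 in si-NC and 1.96, 1.93 and 1.89 in si-GPD1L, with every si-GPD1L ratio lower. Loxl2 over Lox was 0.882, 1.22 and 1.18 in si-NC and 1.27, 1.38 and 1.38 in si-GPD1L. The first si-NC library had the highest Plod2 ratio and the lowest Loxl2 ratio, and in both cases the other si-NC libraries lay nearer to si-GPD1L. The groups overlapped for Lox over Loxl1, at 0.374 to 0.455 in si-NC against 0.411 to 0.433 with si-GPD1L, and for Pcolce over Bmp1, at 10.9 to 13.5 and 11.2 to 11.7.

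The enzymes were set against their main substrates as counts per 1000 counts of Col1a1, Col1a2 and Col3a1 in the same library. These 3 collagens took 6.14%, 7.61% and 7.76% of the counts in si-NC and 7.31%, 7.37% and 7.70% in si-GPD1L, so the first si-NC library held the smallest share. Per 1000 collagen counts, Loxl2 was at 3.83, 3.72 and 3.61 in si-NC and 4.30, 4.26 and 4.18 in si-GPD1L, a difference of 0.19 on the log2 scale. Plod1 differed by 0.18 in the same direction, Bmp1 by -0.18 and Pcolce by -0.23, and for these 4 genes the groups did not overlap. Of the 10 ratios 4 were higher and 6 lower in si-GPD1L, with a median log2 difference of -0.06. The ratios were not tested, and the share of all genes whose ratios did not overlap was not computed. The sum joins Col1a1 (log2 fold change 0.25) and Col3a1 (-0.26), which differed in opposite directions with neither called. Col1a2 contributed little to the sum, with a mean of 7304 normalized counts in si-NC against 762740 for Col1a1. Col1a2 shares 34928 bases with Slc25a13 on the opposite strand, and whether counting used strand is not given in the sources used here.

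**Figure D4:**
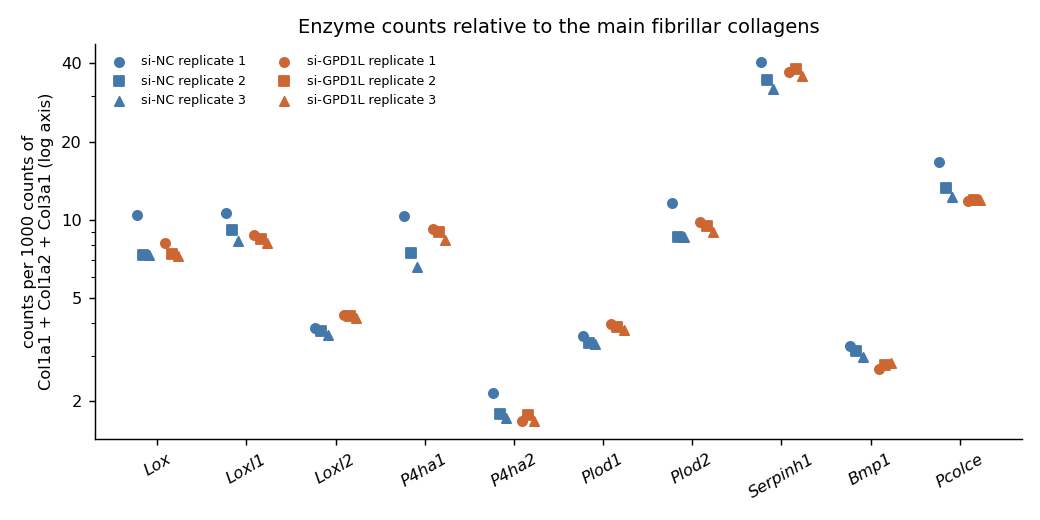
Counts of each of the 10 genes per 1000 counts of Col1a1, Col1a2 and Col3a1 in the same library (vertical log axis), with si-NC and si-GPD1L in separate colors and a marker shape per replicate. Loxl2 and Plod1 lie higher and Bmp1 and Pcolce lower in all si-GPD1L libraries, and the first si-NC library is the highest si-NC point for all 10 genes.

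Of 17 collagens tested, 2 were called higher and 0 lower (DESeq2 3 and 0, the exact test 2 and 0, with 6 at an unadjusted p under 0.05), with a median log2 fold change of 0.05. Col24a1, a minor fibrillar collagen, rose from 364, 456 and 418 normalized counts in si-NC to 806, 832 and 930 with si-GPD1L (log2 fold change 1.05 ± 0.10, adjusted p = 2.09e-05). Col27a1, another minor fibrillar collagen, rose from 595 ± 50.7 to 850 ± 53.8 (SD, n = 3 each), a log2 fold change of 0.52 ± 0.09 (adjusted p = 0.00381). The main substrates did not pass: the log2 fold change was 0.25 for Col1a1 (adjusted p = 0.219), 0.21 for Col1a2 (adjusted p = 0.137) and -0.26 for Col3a1 (adjusted p = 0.156). Without the first si-NC library 10 collagens were called, 5 in each direction, in a fit that called 10.1% of all genes tested. All 3 main substrates crossed the threshold. The log2 fold change was then 0.12 for Col1a1 (adjusted p = 0.00607, up to 0.477 in the other alternatives), down from 0.25 with all libraries, 0.23 for Col1a2 (adjusted p = 0.0260, up to 0.429) and -0.33 for Col3a1 (adjusted p = 0.000430, up to 0.473).

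Of 30 other collagen processing genes listed, 27 were tested, 2 were called higher and 1 lower, with a median log2 fold change of 0.09. Loxl3, a further lysyl oxidase, rose from 839, 882 and 870 normalized counts in si-NC to 1297, 1105 and 1010 with si-GPD1L (log2 fold change 0.40 ± 0.09, adjusted p = 0.0240). Colgalt2, a collagen galactosyltransferase, rose from 33.6, 43.4 and 45.9 to 75.2, 66.3 and 72.9, a log2 fold change of 0.80 ± 0.20 (adjusted p = 0.0353). Adamts3, which removes procollagen N-propeptides, fell from 274, 395 and 442 to 184, 187 and 243, a log2 fold change of -0.85 ± 0.17 (adjusted p = 0.0104). The call of each depended on single libraries: Loxl3 was not called without the second si-NC library or the first or second si-GPD1L library (adjusted p up to 0.143), Adamts3 without the first or second si-GPD1L library (up to 0.0766), and Colgalt2 when any library other than the third si-NC library was left out (up to 0.143). P4hb, the beta subunit shared by P4ha1 and P4ha2, was at 18897, 19822 and 19173 in si-NC and 22081, 22173 and 21888 in si-GPD1L. Its groups were far apart for their spread, but the log2 fold change of 0.19 ± 0.07 did not pass (adjusted p = 0.130), and it was called without the first si-NC library (adjusted p = 0.0231, up to 0.389 in the other alternatives). The other relatives were not called, with log2 fold changes of 0.14 for Plod3, 0.11 for P4ha3, 0.07 for Loxl4 and -0.26 for Tll1. Loxl3 shares 43 bases with Htra2 on the opposite strand. Tll2 was too low to be tested, and Pcolce2 and Mia2 were not analysed here.

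Other lists that act on collagen held called genes in part. Among 24 elastic fiber and fibril assembly genes tested, 2 were called higher and 4 lower (median log2 fold change 0.03), with Fbln2 (fibulin 2) at 0.55 ± 0.09 (adjusted p = 0.00314) and Ltbp2 at 0.58 ± 0.11 (adjusted p = 0.00983). Lum and Dcn, small proteoglycans that coat collagen fibrils, were called lower, at -0.77 ± 0.14 (adjusted p = 0.00580) and -0.66 ± 0.14 (adjusted p = 0.0129). The other small proteoglycans of the list, Bgn at 0.02 ± 0.08 and Fmod at -0.62 ± 0.18, were not called (adjusted p = 0.922 and 0.0623). They are named after their values were seen. Fmod was called by DESeq2 and the exact test, and was not called in 7 of 13 alternatives. Among 12 collagen breakdown genes tested, 0 were higher and 2 lower (median -0.14), namely the fibroblast protease Fap at -0.82 ± 0.09 (adjusted p = 7.53e-05) and the membrane collagenase Mmp14 at -0.30 ± 0.08 (adjusted p = 0.0410). Of 18 TGF-beta signaling genes, 2 were higher and 1 lower (median -0.00067), among them the inhibitor Smad6 at 0.44 ± 0.07 (adjusted p = 0.00310) and the ligand Tgfb3 at -0.30 ± 0.07 (adjusted p = 0.0261). Of 24 hypoxia-response genes, 0 were called by the quasi-likelihood and exact tests and 1 by DESeq2, and 3 had an unadjusted p under 0.05 (median 0.04). Of 18 endoplasmic reticulum chaperone genes, 0 were called by all 3 tests and 5 had an unadjusted p under 0.05 (median 0.09), but without the first si-NC library 8 were called, 7 of them higher. Without the first si-NC library 11 elastic fiber and assembly genes, 5 breakdown genes and 8 TGF-beta genes were called. That fit, which also called the 8 chaperone genes, called 10.1% of all genes tested, against 6.36% with all libraries. Leaving out a si-GPD1L library also moved the counts of these lists. Without the first, 2 elastic fiber and assembly genes and 1 breakdown gene were called, without the second 3 and 1, and without the third 7 and 1. Over all genes these fits called 366 of 15174, 361 of 15120 and 591 of 15167, against 945 of 14852 with all libraries. Ltbp2 was not called without the first si-GPD1L library (adjusted p = 0.0728), Dcn without the first or second (up to 0.0842), Mmp14 when any library other than the first si-NC library was left out (up to 0.228), and Tgfb3 without the second si-NC library or any si-GPD1L library (up to 0.167).

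**Figure D5:**
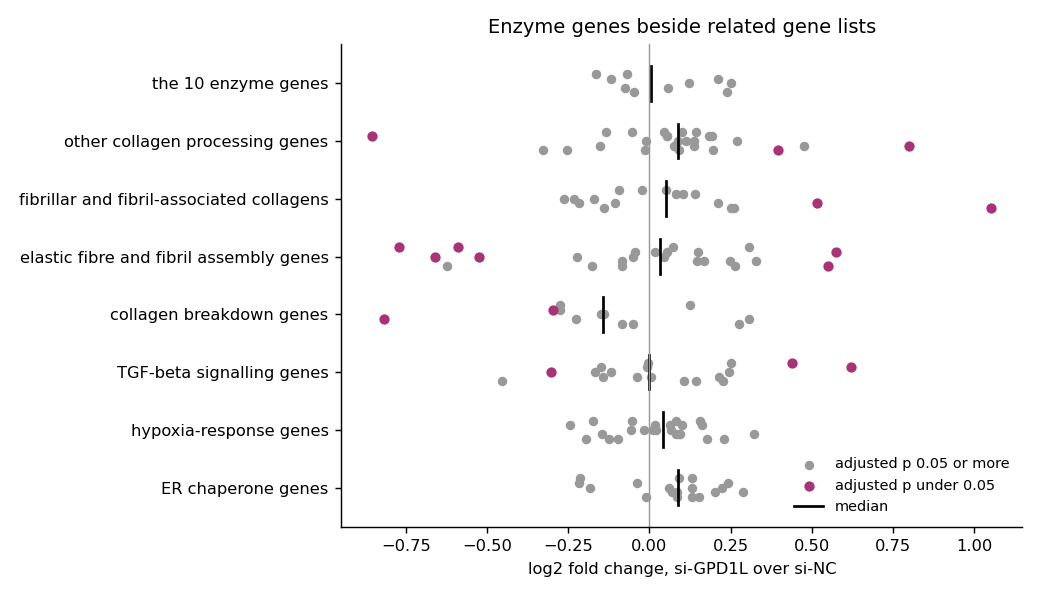
Log2 fold change of si-GPD1L over si-NC for each tested gene of 8 lists (horizontal axis, log2 units), 1 point per gene, colored where the adjusted p was under 0.05, with a bar at the median of each list. The 10 enzyme genes lie within -0.17 to 0.25 with none called, where 6.36% of all genes tested were called. The hypoxia-response and endoplasmic reticulum chaperone lists also have none called. Called genes such as Col24a1 at 1.05 and Adamts3 at -0.85 lie in other lists.

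Of the 10 genes, 5 have 1 annotated transcript in the table and the other 5 have 2 to 5, whose counts share reads. Lox counts fell on a long transcript of 4893 bases almost entirely, and a short one of 1785 bases collected 27.6%, 32.5% and 31.5% of the gene's counts in si-NC and 33.5%, 33.9% and 33.5% in si-GPD1L. The first si-NC library had the lowest share, and the other si-NC libraries also lay below all si-GPD1L libraries. The counts on the longer of the 2 Plod2 transcripts, whose extra 63 bases come from an alternative exon, exceeded those on the shorter by 9.66%, 9.47% and 9.09% of the longer in si-NC and 8.87%, 9.39% and 9.68% in si-GPD1L. These Plod2 shares overlapped. For P4ha1 the counts on the longest transcript exceeded those on the shortest by 20.3% to 22.6% of the longest in si-NC. With si-GPD1L the excess was 20.4% to 21.9%, so the groups overlapped too. None of these shares was tested.

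Hydroxylase genes of collagen are known targets of the hypoxia-inducible factors, whose binding core is ACGTG or GCGTG. Promoter sequences were given for 7 of the 10 genes (RefSeq, build GRCr8, 250 bases before to 50 after the gene's start), not for Lox, Loxl2 and Bmp1. On either strand ACGTG was in 3 of 7 (19.3% of all 33469 promoters) and GCGTG in 5 of 7 (29.7%), and either form was in 5 of 7 (41.6%), the 5 being P4ha1, P4ha2, Plod1, Plod2 and Pcolce. For each hydroxylase 1 window is shown, with the core in capitals, to let the letters be seen beside the folds given above. It holds the match nearest to the start among those upstream of it. P4ha1, P4ha2 and Plod2 have further matches that are not shown. The ACGTG of P4ha1 lies 11 bases after its start, on the other strand. A match is a description and not a site. Loxl1 and Serpinh1 having none says only that these letters are not in their promoter sequence. The Plod2 window holds ACGTG on the other strand. The windows shown are P4ha1 at chr20:27844938-27844961 (plus strand), P4ha2 at chr10:38743844-38743867 (plus), Plod1 at chr5:163650760-163650783 (minus) and Plod2 at chr8:101964176-101964199 (plus), each written along its gene.
P4ha1: tgcgtcctcGCGTGggccagcctg
P4ha2: gaggtggggACGTGgcggaggctc
Plod1: ggccccagtGCGTGgcagcgctcg
Plod2: gaggcggtgCACGTaggcgtaggc

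For each of the 10 genes the gene most alike over the 6 libraries was looked up among 10653 candidates by Pearson's r of log2 normalized counts, as a description. The r ran from 0.988 for Bmp1 with Stard7 to 0.999 for Plod1 with LOC685152. Loxl2 had the same nearest gene as Plod1, with r = 0.998, and in both the first si-NC library was lowest. P4ha1 was most like Yars (r = 0.996), Pcolce most like Rce1 (r = 0.994) and Lox most like Chmp5 (r = 0.995). The 6 libraries differ in group and in the first si-NC library, and nothing is drawn from these values. Of the 10 genes, Lox overlaps a pseudogene (LOC681584) and Zfp474 on the opposite strand, and Pcolce overlaps a long noncoding RNA on the opposite strand, whose counts over the 6 libraries were 236, 1 and 13.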

How the data were processed

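Polyadenylated RNA of 6 libraries, 3 si-NC and 3 si-GPD1L, was sequenced. The authors deposited read counts per gene (40154 genes) and per transcript (55760), made per the submitters' processing notes with HISAT2 2.1.0 and HTSeq 0.12.4 on rn6. Whether counting used strand is not given in the sources used here. The deposited TPM equal counts over length scaled to a common sum, to within 4.91e-11. The transcript table sums to 40992579 to 49099497 per library, and reads shared by isoforms were counted more than once. Tables of the authors' own comparison (fold changes, p-values and enriched terms) were not used.

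Counts were tested in R 4.3.3 with edgeR 4.0.16: filterByExpr, TMM, glmQLFit and glmQLFTest, with Benjamini-Hochberg adjustment over 14852 genes and the call at an adjusted p under 0.05. SE is the log2 fold change over the square root of F. The biological coefficient of variation was 0.0894. In data simulated from these libraries, the test found 100 of 100 genes changed by 1 and 83 of 100 changed by 0.5 on the log2 scale. It made 16 false calls among 14656 genes. Smaller changes were not simulated, nor was a library that stands apart. The simulation therefore does not show how often changes as small as those of the 10 genes (at most 0.25, for Loxl2) would be found. Alternatives were DESeq2 1.42.0, the exact test, other normalizations and filters, a replicate block, other thresholds, each library left out and, for the 10 genes, the transcript table. Named were all 10 genes, Gpd1l, their relatives, Col1a1, Col1a2 and Col3a1, up to 4 genes with the smallest adjusted p per list, and the most alike gene of each of the 10. A gene that met this rule is not reported here. The members and lists were chosen with earlier results of these data known. Figures were drawn with matplotlib 3.10.9.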

Additional observations from a re-analysis of the deposited data

How the results depend on the processing

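The count of called genes among the 10 was 0 with the other normalizations, DESeq2, the exact test, the stricter filter, the stricter threshold and the threshold on fold change, 1 with no filter beyond 1 count (Loxl2), and 0 to 2 with 1 library left out. The other collagen processing genes gave 3 calls, 5 with no filter and 0 to 4 with 1 library left out. The collagens gave 2 calls, 6 with no filter and 2 to 10 with 1 library left out. The 6 other lists together gave 31 calls, and 25 to 53 with 1 library left out. In each of these fits 20 of the calls were interferon-stimulated genes. With no filter the elastic fiber and assembly genes gave 11 calls in place of 6 and the breakdown genes 5 in place of 2. The TGF-beta genes then gave 6 in place of 3 (5 by DESeq2 and by the exact test). The endoplasmic reticulum chaperones gave 1 in place of 0 (also 1 with upper-quartile normalization). Requiring 10 or more counts in each library left 11 of 20 interferon-stimulated genes called. The others, such as Mx1 with a mean of 6.45 normalized counts in si-NC, did not pass that filter and were not tested. Lox turned to 0.0077 without the first si-NC library, and with each library left out it ran from -0.085 to 0.0077. The other 9 genes kept their direction in all 14 alternatives, and P4ha1 and Bmp1 were called without the first si-NC library. Over all genes 945 were called, 1929 with no filter, 1528 by the exact test, 623 in the transcript table and 361 to 1531 with 1 library left out. Correlations of deviations between libraries of the same number were 0.04, -0.0036 and 0.05. The first si-NC library was most like the si-GPD1L library of its number, the second most like the first and the third most like the second. All these correlations lay between -0.09 and 0.05, too near to 0 to decide whether the numbers pair the libraries. With a replicate block, 0 of the 10 genes, 2 other processing genes, 2 collagens and 33 genes of the 6 other lists were called. Of these 33, 20 were interferon-stimulated genes. The Gpd1l log2 fold change was then -0.32, and Colgalt2 was no longer called. The cause of these shifts was not tested.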
